A study of Mus musculus with 4 samples.

Results

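The DNA replication and S phase genes were a list of 44 genes of the machinery that copies the genome, taken by exact gene symbol. For each gene the brightest probe set by mean level over the arrays was used, and 43 of the 44 had one, among 19761 genes measured in all. Chaf1a was not analysed here. The arrays compared cells of cultured C57BL/6J mouse spleen pieces: adherent cells that formed compact colonies, called SACCs, and adherent cells that grew as a monolayer, the controls. There were 4 Affymetrix arrays, 2 per group. SACC replicate 1 had been moved to a serum-free medium made for mouse embryonic stem (ES) cells, while SACC replicate 2 and both controls were in plain medium. The label of control replicate 2 reads plain medium Ver.2, and that of control replicate 1 plain medium alone. The labels name control replicate 1 as the reference of SACC replicate 1, here the ES-medium pair, and control replicate 2 as the reference of SACC replicate 2, here the plain-medium pair. In the ES-medium pair the medium and the cell state differed together, so their contributions cannot be told apart there. The labels give no age or sex of the mice and do not say whether different animals or cultures were used for each array, so p-values measure only the spread between these arrays.

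A cell that is about to divide first licenses its replication origins in G1, when the origin recognition complex, Cdc6 and Cdt1 load the Mcm2 to Mcm7 ring. In S phase the ring is activated by Cdc45 and the GINS complex, polymerases copy both strands around the sliding clamp Pcna, and ribonucleotide reductase and thymidylate enzymes supply the building blocks. Transcription of many of these genes is driven by E2F factors once the retinoblastoma family releases them, so their RNA is commonly read as a sign of cells passing from G1 into S phase.

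In the ES-medium pair most of these genes were modestly higher in SACCs, and in the plain-medium pair nearly all were lower in SACCs. The log2 ratio of SACC to control had a median of 0.41 over the 43 genes in the ES-medium pair, where 35 were above 0, 7 below and Pold1 at 0. The median was -0.89 in the plain-medium pair, where 42 were below 0. Over all genes the medians were -0.01 and -0.02, with 47.4% above 0 in the ES-medium pair and 52.4% below 0 in the plain-medium pair. The genes that stood farthest apart between the pairs were Rrm2, Tk1, Cdc6 and Ccne2, each at least 2-fold higher in SACCs in one pair and at least 2-fold lower in the other.

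Promoter sequences show one feature that many of these genes share and that the list did not use. In windows from 250 bases before to 50 bases after the gene start (RefSeq, GRCm38.p6), 37 of the 44 genes had an entry. The E2F words TTTCCCGC, TTTCGCGC, TTTGCCGC and TTTGGCGC were searched on both strands, with overlapping words counted separately. At least 1 word was present in 15 of the 37 promoters (40.5%), against 2.61% of all 27025 genes with a promoter and 4.63% of the genes measured here above the median probe set. The share was highest among the origin licensing genes, 7 of 9. These 7 are shown, with Rfc3 as the gene outside licensing with neighbouring words, each with its stretch in GRCm38.p6, 5′ to 3′ on the strand of the gene and with the words in capitals.
Orc1 (chr4:108579407-108579454, plus strand): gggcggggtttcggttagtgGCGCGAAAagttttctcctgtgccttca
Cdc6 (chr11:98907993-98908040, plus strand): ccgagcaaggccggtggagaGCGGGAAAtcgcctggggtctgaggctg
Cdt1 (chr8:122568027-122568064, plus strand): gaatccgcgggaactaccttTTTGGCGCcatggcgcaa
Mcm3 (chr1:20820263-20820313, minus strand): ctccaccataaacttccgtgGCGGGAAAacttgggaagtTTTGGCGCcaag
Mcm5 (chr8:75109336-75109387, plus strand): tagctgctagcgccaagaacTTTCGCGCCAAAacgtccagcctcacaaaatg
Mcm6 (chr1:128359725-128359835, minus strand): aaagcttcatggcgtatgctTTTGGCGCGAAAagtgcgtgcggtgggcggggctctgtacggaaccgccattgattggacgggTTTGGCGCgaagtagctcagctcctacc
Mcm7 (chr5:138171840-138172068, minus strand): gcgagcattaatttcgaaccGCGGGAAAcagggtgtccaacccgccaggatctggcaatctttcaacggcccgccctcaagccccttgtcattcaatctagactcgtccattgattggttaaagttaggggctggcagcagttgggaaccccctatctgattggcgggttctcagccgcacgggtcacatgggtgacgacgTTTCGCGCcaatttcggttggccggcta
Rfc3 (chr5:151651181-151651238, minus strand): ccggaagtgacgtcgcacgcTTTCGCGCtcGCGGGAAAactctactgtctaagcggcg
Orc1, Cdc6 and Cdt1 each carried a single word. In Mcm5 a TTTCGCGC overlapped the reverse of TTTGGCGC in a single stretch, and in Mcm6 a TTTGGCGC overlapped the reverse of TTTCGCGC, with a separate TTTGGCGC further on. In these windows the word is a match of letters and not a site shown to be bound, and a window with no match lacks only these letters.

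**Figure D1:**
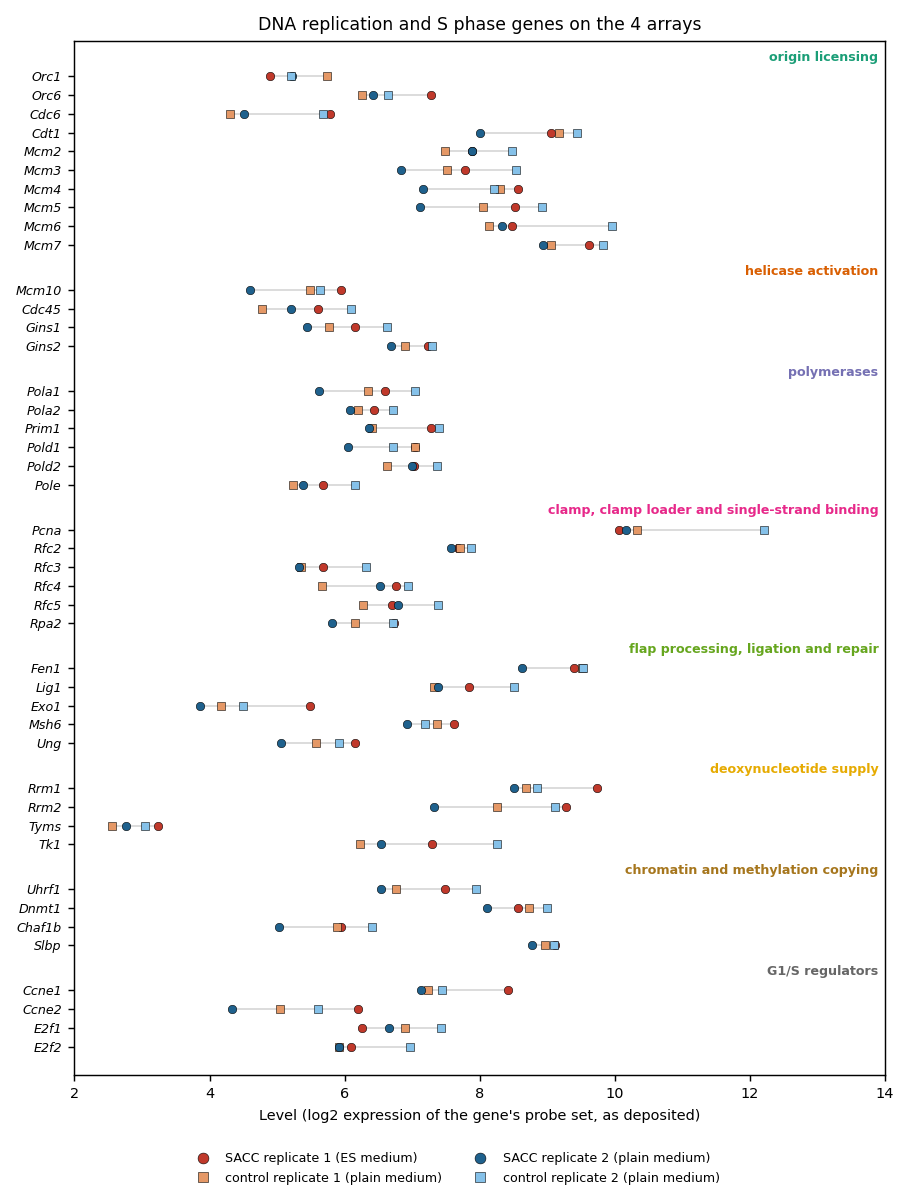
Level of each of the 43 measured genes on each of the 4 arrays, as deposited log2 expression of the gene's probe set, ordered by role. Circles are SACCs and squares are controls, and a grey line spans the 4 values. Control replicate 2 (light blue squares) was highest for most genes, and SACC replicate 2 (dark blue circles) or control replicate 1 (orange squares) was lowest for 40 of 43 after centring each array on its median. Positions of different genes are not comparable with each other, because each has its own probe set.

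Among the licensing genes, those of the Mcm ring were alike. All 6 genes from Mcm2 to Mcm7 were above 0 in the ES-medium pair, with log2 ratios of 0.26 to 0.56, and below 0 in the plain-medium pair, with ratios of -1.81 to -0.6. Their median ratios were 0.365 and -1.34. Mcm5 was at 8.52 in SACC replicate 1 and 8.05 in its control, and at 7.11 in SACC replicate 2 and 8.92 in its control. It was thus 1.39-fold higher in SACCs in the ES-medium pair and 3.51-fold lower in the plain-medium pair. Mcm3 gave 7.78 and 7.51 in the SACC and control of the ES-medium pair and 6.84 and 8.54 in those of the plain-medium pair. Mcm6 gave 8.47 and 8.13 in the ES-medium pair and 8.33 and 9.96 in the plain-medium pair. For Mcm3 and Mcm6 control replicate 2 was the highest array and the groups overlapped. Mcm3 was 3.25-fold and Mcm6 3.1-fold lower in SACCs in the plain-medium pair. The other probe sets of Mcm3 had ES-medium ratios of 0.19, -0.02 and -0.34 and plain-medium ratios of -1.65, -1.52 and -1.29, so only the lower level in the plain-medium pair was shared by all 4.

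Mcm4 was at 8.56 and 8.3 in the SACC and control of the ES-medium pair and at 7.16 and 8.21 in the plain-medium pair. Mcm7 was at 9.62 and 9.06 in the ES-medium pair and at 8.93 and 9.82 in the plain-medium pair. Mcm2 was at 7.88 in both SACC arrays, with 7.49 in control replicate 1 and 8.48 in control replicate 2. For Mcm2 both ratios therefore followed the controls alone, while for Mcm4 the controls lay close together and SACC replicate 2 was the low array. Among the 6 ring genes, 4 were at least 2-fold lower in SACCs in the plain-medium pair (Mcm3, Mcm4, Mcm5 and Mcm6), and none was 2-fold higher in the ES-medium pair. Which genes passed 2-fold depended on the probe set. Another probe set had ratios of 1.07 and -1.02 for Mcm7, 0.72 and -1.19 for Mcm2, and 0.48 and -0.97 for Mcm4.

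The loading factors of the ring were less uniform. Cdc6, the ATPase that joins the origin complex and recruits the ring, was at 5.78 and 4.3 in the SACC and control of the ES-medium pair and at 4.51 and 5.68 in the plain-medium pair. Its ES ratio of 1.48 was the highest of all 43 genes, and its plain ratio was -1.17. The lower array of each pair was near its array's median, so Cdc6 was dim there. Cdt1, the partner of Cdc6 in loading, was at 9.05 and 9.17 in the ES-medium pair and at 8.01 and 9.44 in the plain-medium pair. Both SACC arrays were below either control for Cdt1, with ratios of -0.12 and -1.43. A second probe set of Cdt1 had a ratio of 0.19 in the ES-medium pair and -1.8 in the plain-medium pair, so its sign in the ES-medium pair differed between probe sets.

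Orc1, the largest subunit of the origin recognition complex, was the only gene of the list not below 0 in the plain-medium pair. It was at 4.89 in SACC replicate 1 and 5.74 in its control, and at 5.22 and 5.21 in the plain-medium pair, for ratios of -0.85 and 0.01. Its other probe set was below the median of every array and gave ratios of 0.63 and -0.42. The direction for Orc1 therefore rests on which probe set is taken. Orc6, another subunit of that complex, had ratios of 1.03 and -0.22.

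The factors that switch the ring on were alike. Cdc45, which with GINS completes the active helicase, was at 5.61 and 4.77 in the SACC and control of the ES-medium pair and at 5.21 and 6.09 in the plain-medium pair. Gins1, a GINS subunit, was at 6.16 and 5.77 in the ES-medium pair and at 5.44 and 6.62 in the plain-medium pair. In both genes control replicate 2 was highest, and the ratios were 0.84 and -0.88 for Cdc45 and 0.39 and -1.18 for Gins1. With Mcm10 and Gins2, all 4 activation genes were above 0 in the ES-medium pair and below 0 in the plain-medium pair, with medians of 0.425 and -0.955. A second probe set of Cdc45 had ratios of 0.11 and 0.23, the second of these opposite in sign.

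Among the polymerase genes Prim1 and Pola1, of the complex that starts each strand, differed most between the pairs. Prim1, its RNA-synthesising subunit, was at 7.28 and 6.4 in the SACC and control of the ES-medium pair and at 6.36 and 7.4 in the plain-medium pair. Pola1, the catalytic subunit of polymerase alpha, was at 6.59 and 6.35 in the ES-medium pair and at 5.62 and 7.04 in the plain-medium pair. For both genes the groups overlapped and control replicate 2 was the highest array. Prim1 had ratios of 0.88 and -1.04, and Pola1 of 0.24 and -1.42. Pold1, the catalytic subunit of polymerase delta, was at 7.04 on both arrays of the ES-medium pair and had a plain ratio of -0.67. Over the 6 polymerase genes the medians were 0.325 and -0.72.

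Pcna, the clamp that holds the polymerase on DNA, had the largest ratio of the list in the plain-medium pair. It was at 10.06 in SACC replicate 1, 10.33 in control replicate 1, 10.17 in SACC replicate 2 and 12.21 in control replicate 2. The first 3 of these values lay close together, and control replicate 2 stood apart above them. Pcna was 4.11-fold lower in SACCs in the plain-medium pair, with ratios of -0.27 and -2.04. The clamp loader genes, which open Pcna and place it on primed DNA, had smaller plain ratios. Rfc4 was at 6.76 and 5.67 in the SACC and control of the ES-medium pair and at 6.53 and 6.94 in the plain-medium pair, and control replicate 1 was its low array, with ratios of 1.09 and -0.41. Rfc2 was at 7.68 and 7.71 in the ES-medium pair and at 7.58 and 7.87 in the plain-medium pair. On this probe set the 4 values of Rfc2 had the narrowest range of the 43 genes. Its other probe sets above the median of every array ranged more widely, from 4.48 to 5.37 and from 5.08 to 6.25. Their ES ratios were 0.12 and -0.3, and their plain ratios -0.41 and -0.68.

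Of the genes that finish and proofread the copy, Exo1 and Lig1 differed most between the pairs. Lig1, the ligase that seals Okazaki fragments, was at 7.84 and 7.33 in the SACC and control of the ES-medium pair and at 7.38 and 8.51 in the plain-medium pair. Exo1, an exonuclease of mismatch repair, was at 5.48 and 4.17 in the ES-medium pair and at 3.86 and 4.5 in the plain-medium pair. Control replicate 2 was the high array for Lig1 and SACC replicate 1 for Exo1, and Exo1 was below the array's median on control replicate 1 and SACC replicate 2. The ratios were 0.51 and -1.13 for Lig1 and 1.31 and -0.64 for Exo1. Fen1, the flap endonuclease, was at 9.4 and 9.51 in the ES-medium pair and at 8.63 and 9.53 in the plain-medium pair. Its ES ratio of -0.11 had the opposite sign in a second probe set (0.47), while both gave a lower level in the plain-medium pair (-0.9 and -1.71).

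The genes of deoxynucleotide supply had the highest median of any role in the ES-medium pair, 1.025, and a median of -1.025 in the plain-medium pair. Rrm2, the S phase subunit of ribonucleotide reductase, was at 9.27 and 8.26 in the SACC and control of the ES-medium pair and at 7.33 and 9.12 in the plain-medium pair. Tk1, the thymidine salvage kinase, was at 7.3 and 6.23 in the ES-medium pair and at 6.54 and 8.26 in the plain-medium pair. On this probe set of Rrm2, SACC replicate 1 was near control replicate 2 and SACC replicate 2 was the lowest array. On its other probe sets control replicate 1 was lowest, at 5.2 and 6.75. There SACC replicate 1, at 6.18 and 7.9, was well below control replicate 2, at 8.28 and 9.28. Rrm2 was 2.01-fold higher in SACCs in the ES-medium pair and 3.46-fold lower in the plain-medium pair, and its other probe sets gave 0.98 and 1.15 in the ES-medium pair and -1.4 and -1.69 in the plain-medium pair. Tk1 was 2.1-fold higher and 3.29-fold lower in SACCs in the same order. Rrm1, the large reductase subunit, was 2.06-fold higher in the ES-medium pair and 1.26-fold lower in the plain-medium pair. The other probe set of Rrm1 had log2 ratios of 0.3 and 0.1, the second of these opposite in sign. Tyms, which makes thymidylate, was below the median of every array in all its probe sets, so its ratios of 0.68 and -0.28 are those of a dim signal.

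Genes that copy chromatin and DNA methylation had the lowest median in the ES-medium pair, 0.105, and -1.13 in the plain-medium pair. Uhrf1, which reads hemimethylated DNA behind the fork, was at 7.49 and 6.76 in the SACC and control of the ES-medium pair and at 6.54 and 7.94 in the plain-medium pair. Chaf1b, a subunit of the histone chaperone CAF-1, was at 5.95 and 5.88 in the ES-medium pair and at 5.03 and 6.41 in the plain-medium pair. Dnmt1, the maintenance methyltransferase, was at 8.56 and 8.73 in the ES-medium pair and at 8.11 and 8.99 in the plain-medium pair. On this probe set Dnmt1 was lower on both SACC arrays than on either control. On its other probe sets the groups overlapped on the deposited values. There SACC replicate 1, at 8.69 and 7.34, was above control replicate 2, at 8.54 and 7.11. The plain ratios were -1.4 for Uhrf1, -1.38 for Chaf1b and -0.88 for Dnmt1, and the ES ratios were 0.73, 0.07 and -0.17 in the same order.

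The regulators of S phase entry split. Ccne1 and Ccne2, the E cyclins that activate Cdk2, were both more than 2-fold higher in SACCs in the ES-medium pair. Ccne1 was at 8.42 and 7.23 in the SACC and control of that pair and at 7.13 and 7.44 in the plain-medium pair. Ccne2 was at 6.2 and 5.04 in the ES-medium pair and at 4.33 and 5.61 in the plain-medium pair, with SACC replicate 2 just below its array's median. SACC replicate 1 was the highest array for both cyclins, and the groups overlapped. E2f1, the activating transcription factor, was at 6.25 and 6.9 in the ES-medium pair and at 6.66 and 7.42 in the plain-medium pair. It was lower in SACCs in both pairs, with ratios of -0.65 and -0.76, and on the deposited values both SACC arrays were below either control. E2f2, a related activator, had ratios of 0.18 and -1.05.

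The 16 genes outside the rule for values on every array had ES ratios of 0 to 1.04, 15 of them above 0, and plain ratios of -1.05 to -0.22, all 16 below 0. They were Orc6, Mcm10, Gins2, Pola2, Pold1, Pold2, Pole, Rfc3, Rfc5, Rpa2, Msh6, Ung, Rrm1, Tyms, Slbp and E2f2.

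In counts, 9 of the 43 genes were at least 2-fold higher in SACCs in the ES-medium pair, where 6.51% of all genes were, and 0 were 2-fold lower, where 4.08% of all genes were. In the plain-medium pair 18 of 43 were at least 2-fold lower, where 5.19% of all genes were, and 0 were 2-fold higher, where 6.01% were. The ratio was above 0 in the ES-medium pair and below 0 in the plain-medium pair for 35 of 43, a combination that 16.5% of all genes had. Another 6 genes (Cdt1, Pcna, Rfc2, Fen1, Dnmt1 and E2f1) were below 0 in both pairs. This was a smaller share than over all genes, where 6864 of 19761 were. At least 2-fold in opposite directions was seen for 4 of the 43 and for 30 of all genes (0.152%). Most genes of the list were bright, with 39 of 43 above the median of every array. Among the 12223 genes above the median probe set, 9.37% were at least 2-fold higher and 6.11% at least 2-fold lower in the ES-medium pair, and 8.93% were higher and 7.85% lower by that much in the plain-medium pair. In that background 55.6% were above 0 in the ES-medium pair, 48.5% were below 0 in the plain-medium pair and 16.4% were both. The plain ratio was the larger in size for 33 of 43 genes, a count that was not made over all genes. The ES ratio minus the plain ratio had a median of 1.42, against 0.01 over all genes. With 1 array per group in a pair, none of these counts carries a test.

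**Figure D2:**
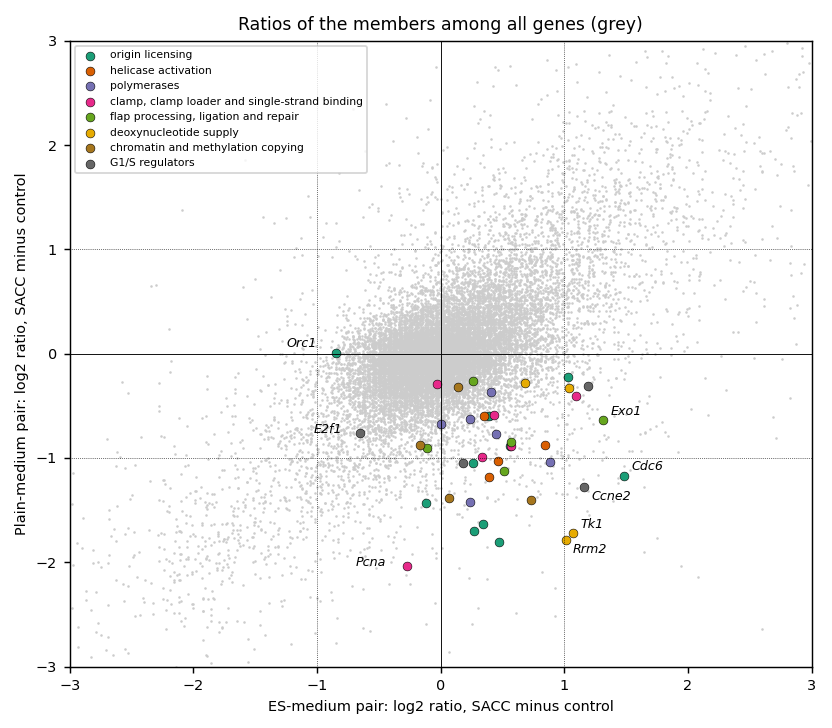
Log2 ratio of SACC to control for each gene in the ES-medium pair (horizontal axis) and the plain-medium pair (vertical axis). Coloured points are the 43 genes, by role, grey points are all other genes within the axes, and dotted lines mark 2-fold. The coloured points lie mainly to the right of 0 and below 0, with Cdc6, Ccne2, Tk1 and Rrm2 past 2-fold in both directions.

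No gene of the list passed the test over both pairs. In a limma fit with pair as the blocking term, adjusted by Benjamini-Hochberg over 45037 probe sets, 0 of the 43 genes passed an adjusted p of 0.05, a threshold passed by 587 probe sets (1.3%). At an unadjusted p under 0.05 there was 1, E2f1, against 16.9% of probe sets. E2f1 had a mean log2 ratio of -0.71 ± 0.16 (moderated SE from limma, 2 pairs, limma unadjusted p = 0.0115, limma adjusted p = 0.148). The mean ratio of E2f1 was -0.32 with the mean over its probe sets and -0.445 without control replicate 2, and its other probe sets had ratios of -0.33 and -0.42, and of 0 and 0.24. Pcna had a mean ratio of -1.16 ± 0.47 (moderated SE from limma, 2 pairs, limma adjusted p = 0.347), of which most came from the plain-medium pair. Without control replicate 2, in a fit with no block, the mean ratio of Pcna was -0.22. The median of the mean ratios over the 43 genes was -0.195, against -0.025 over all genes. The test sets the mean ratio against a moderated spread. That spread joins the one between the pairs (1 residual degree of freedom) with a prior from all probe sets (2.965 degrees of freedom). The difference between the pairs has no replicate and was not tested.

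Which arrays were high or low differed from the grouping into SACC and control. After each array was centred on its median, control replicate 2 was the highest array for 31 of 43 genes, where 30.6% of all genes had their highest value on it. SACC replicate 1 was highest for 11 of 43, a share close to that of all genes (5226 of 19761). Control replicate 1 was the lowest for 23 and SACC replicate 2 for 17, together 40 of 43, where 55.5% of all genes were lowest on one of those arrays. Among genes above the median probe set these shares were 28.1% for control replicate 2 and 57.6% for the lowest arrays. Relative to each gene's own mean of the centred values, the median deviation was 0.12 on SACC replicate 1, -0.39 on control replicate 1, -0.33 on SACC replicate 2 and 0.575 on control replicate 2. The summed linear level of the 43 genes was 10322 and 8347 on SACC replicate 1 and its control, and 6651 and 15425 on SACC replicate 2 and its control. Such sums weigh bright genes most. Pcna, the brightest of the list by mean level, was at 10.33 on control replicate 1 and 12.21 on control replicate 2. By the median deviations as well as the sums, control replicate 1 was below control replicate 2. Both are monolayers labelled with plain medium, but only the label of control replicate 2 adds Ver.2. In bulk RNA, fewer cells in S phase and less RNA per cell cannot be told apart.

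The controls were also set against each other directly, less the median difference of all probe sets. Control replicate 1 was lower than control replicate 2 for 41 of 43 genes, where 53.2% of all genes were lower. The median log2 difference was -0.77, against -0.04 over all genes. The exceptions were Orc1 and Pold1. SACC replicate 1 was higher than SACC replicate 2 for 34 of 43, where 49.4% of all genes were higher. The median was 0.55, against 0 over all genes. The shares among genes above the median probe set were 52.5% for the controls and 53% for the SACCs. Crossing the pairs, SACC replicate 1 minus control replicate 2 had a median of -0.45 on the centred scale, and SACC replicate 2 minus control replicate 1 a median of 0.05. Both SACC arrays were below both controls for 6 of 43 genes on the deposited values, where 19.5% of all genes were, and for 3 (Cdt1, Fen1 and Dnmt1) on the centred values, where 18.6% were. For each of these 3 the groups overlapped on another probe set above the median of every array. SACC replicate 1 was above control replicate 1 there for Cdt1 (7.11 and 6.92) and Fen1 (6.77 and 6.3). For Dnmt1 it was above control replicate 2 (7.34 and 7.11).

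**Figure D3:**
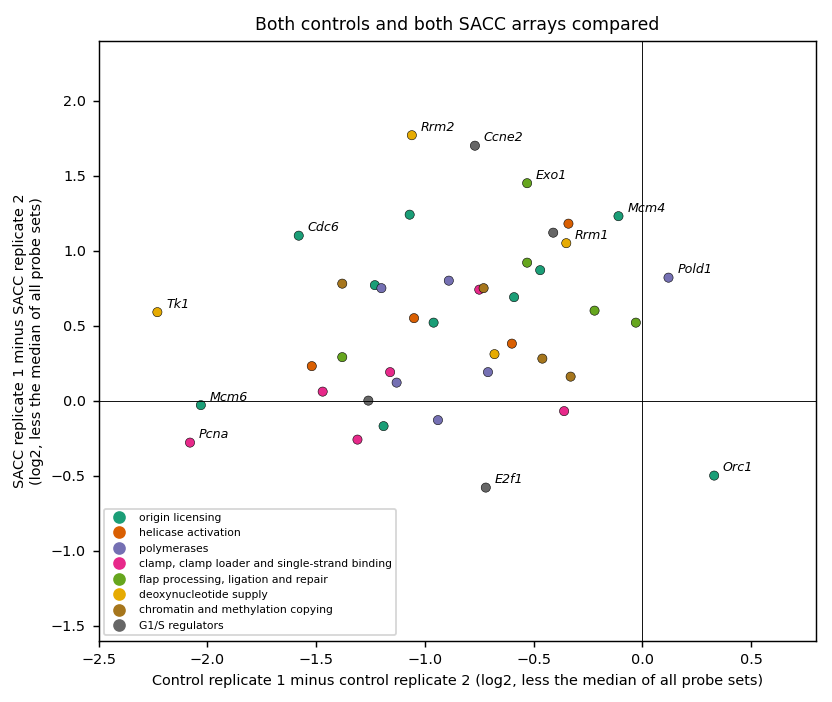
For each of the 43 genes, the log2 difference of control replicate 1 minus control replicate 2 (horizontal axis) against that of SACC replicate 1 minus SACC replicate 2 (vertical axis), each after subtracting the median over all probe sets, coloured by role. Nearly all points lie left of 0, since 41 of 43 genes were lower on control replicate 1, and Tk1, Pcna and Mcm6 lie farthest left.

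These differences between arrays of the same group join tables that appear to have been normalized separately, and they depended far more on the probe set than the ratios within a pair did. For 18 genes with at least 2 probe sets above the median of every array, the spread between probe sets of a gene had a median of 0.315 for the ES ratio and 0.26 for the plain ratio. The same spread was 0.835 for control replicate 1 minus control replicate 2 and 0.8 for the SACC arrays. Rrm1 is the plainest case. One probe set read 8.69 and 8.84 on the controls and 9.73 and 8.51 on the SACCs of replicates 1 and 2, and the other read 5.55 and 8.58 on the controls and 5.85 and 8.68 on the SACCs. Over all 63 such bright probe sets of the list, 54 were lower on control replicate 1 than on control replicate 2, 50 were above 0 in the ES-medium pair and 60 were below 0 in the plain-medium pair.

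Other parts of the cell cycle were read from lists of related genes. Further replication factors (31 of 32 measured), which include the single-strand binding subunit Rpa1 and the checkpoint mediator Topbp1, had median ratios of 0.29 and -0.46, and 19 were above 0 in the ES-medium pair and below 0 in the plain-medium pair. Rpa1 had ratios of 0.55 and -0.56 and Topbp1 of 0.28 and -0.94, while the GINS subunit Gins4 was above 0 in both (0.59 and 0.17). Homologous recombination and checkpoint genes had medians of 0.2 and -0.5 over 15 genes, all 15 below 0 in the plain-medium pair. Chek2, a checkpoint kinase, had ratios of -0.3 and -0.74. Nucleotide synthesis genes outside S phase control had medians of 0.185 and -0.265 over 14 of 15 genes, with Paics at 0.27 and -0.03, Nme1 at 0.41 and -0.04 and Ctps at 0.41 and 0.71. None of the genes in these 3 lists passed the limma test, and 2, 0 and 4 of them had an unadjusted p under 0.05.

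Mitosis genes had the same signs with a different balance. All 18 were above 0 in the ES-medium pair and below 0 in the plain-medium pair, with medians of 1.14 and -0.95. At least 2-fold higher in the ES-medium pair were 14 of 18 mitosis genes and 9 of 43 replication genes, and at least 2-fold lower in the plain-medium pair were 8 of 18 and 18 of 43. Mki67, the proliferation antigen, was at 8.85 and 8.11 in the SACC and control of the ES-medium pair and at 8 and 9.21 in the plain-medium pair. Top2a, the topoisomerase that resolves entangled chromosomes, had ratios of 1.3 and -1.02, and Cdc20, which activates the anaphase-promoting complex, had 1.04 and -0.48. Control replicate 1 was the lowest array for all 18 mitosis genes and for 23 of the 43 replication genes. This difference between the lists was not tested.

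The controllers of G1 had smaller medians. G1 cyclins, their kinases and pocket proteins had medians of 0.07 and -0.18 over 17 genes, with the D cyclins Ccnd1 below 0 in both pairs (-0.83 and -1.44) and Ccnd2 above 0 in both (0.27 and 1.23), and their kinase Cdk4 above 0 in both (1.18 and 0.52). The CDK inhibitors had medians of 0.16 and 0.57 over 7 genes. Cdkn1a, the p53 target that blocks CDK2, was at 11.54 and 11.1 in the SACC and control of the ES-medium pair and at 11.47 and 10.77 in the plain-medium pair, higher on both SACC arrays than on either control (limma adjusted p = 0.227). Cdkn1b had ratios of -0.06 and 0.57 and Cdkn2c of -0.02 and -0.83. No gene of either list passed the limma test, with 5 and 2 at an unadjusted p under 0.05. Housekeeping genes had medians of -0.06 and -0.06 over 9 of 10 genes, among them Actb and Ppia.

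**Figure D4:**
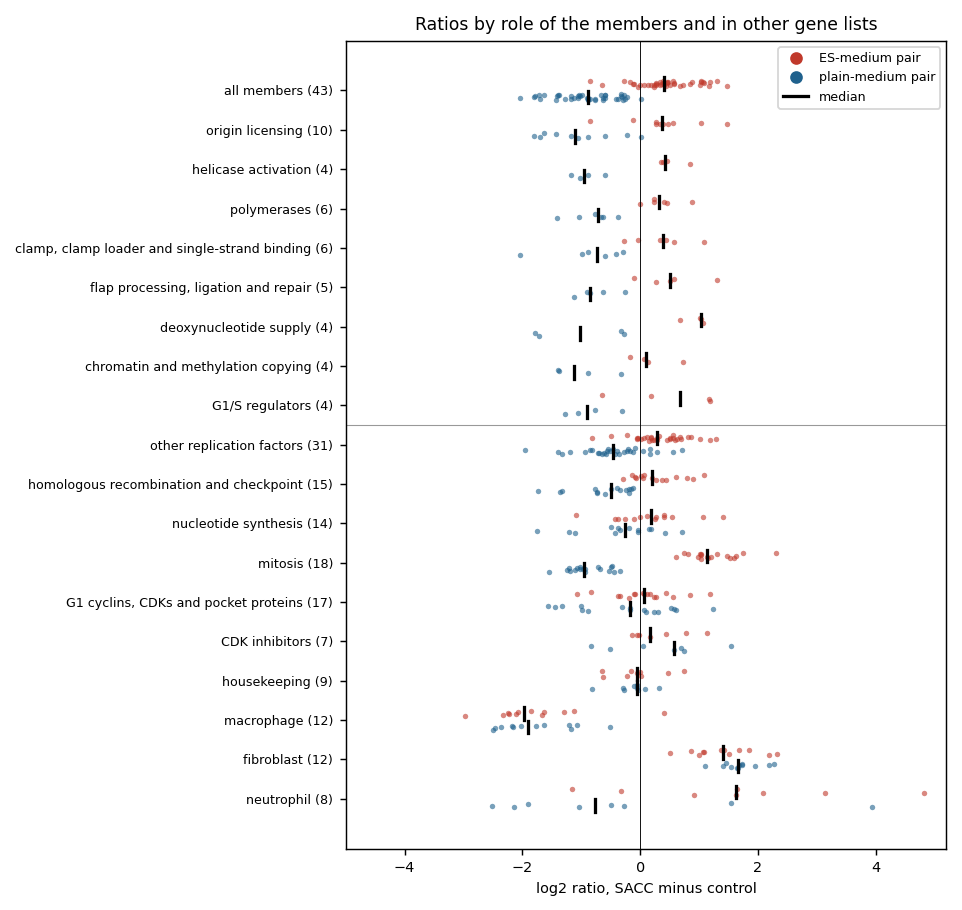
Log2 ratio of SACC to control for every measured gene by role (above the grey line) and in related lists and cell type markers (below it). Red points are the ES-medium pair, blue points the plain-medium pair, black bars the medians, and numbers in brackets the genes measured. The medians of the replication roles and of the mitosis list lie right of 0 in the ES-medium pair and left of 0 in the plain-medium pair, with 7 of the 43 replication genes left of 0 in the ES-medium pair, while macrophage markers lie left of 0, but for 1 in the ES-medium pair, and fibroblast markers right of 0 in both pairs.

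Markers of cell types also differed between the arrays. The summed linear level of 12 macrophage markers was 12707 and 48341 in the SACC and control of the ES-medium pair and 18230 and 52622 in the plain-medium pair, and 5 passed the limma test as lower in SACCs. For 12 fibroblast markers it was 71143 and 31651, then 59383 and 19006, and 4 passed as higher. None of these calls held with no block, with each array centred on its median, or with any array left out. Fibroblast markers were higher in both pairs for 12 of 12, and macrophage markers lower in both for 11 of 12. The 8 neutrophil markers had medians of 1.63 and -0.765, with 5 above 0 in the ES-medium pair and below 0 in the plain-medium pair, and summed levels of 1478 and 623 in the ES-medium pair and 8256.5 and 4874 in the plain-medium pair. The higher sum in the SACC of the plain-medium pair came mainly from Lcn2, at 12.49 and 8.55 there, and Camp, with ratios of 1.62 and 1.54, passed as higher (limma adjusted p = 0.0487) under the same limits. The 7 myeloid progenitor markers had summed levels of 139 and 122, then 497 and 193. Of the labelled tissue's lymphocytes, 3 of 7 B cell and 3 of 7 T cell markers were below the median of every array. The part of any of these cell types in the ratios of the replication genes was not tested.

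Returning to the promoters, the 15 measured genes with an E2F word had median ratios of 0.27 in the ES-medium pair and -1.13 in the plain-medium pair, where 9 were at least 2-fold lower. The 21 with a promoter entry and no word had medians of 0.57 and -0.76, with 6 at least 2-fold lower. The ranges overlapped in both pairs, from -0.85 to 1.48 with a word and -0.65 to 1.19 without in the ES-medium pair, and from -1.81 to 0.01 and -2.04 to -0.22 in the plain-medium pair. Pcna, Rrm2 and Tk1, among the genes with the largest plain ratios, had no word in the window. Among the further replication factors 8 of 26 promoters held a word (30.8%), and among the mitosis genes 1 of 14 (7.14%). The CHR word TTTGAA was searched on both strands as the element known from late cell cycle promoters. It was in 6 of 37 replication promoters (16.2%) and 9 of 14 mitosis promoters (64.3%). The share was 20.2% of all genes with a promoter and 13.8% of the genes measured here above the median probe set. These shares are descriptions, and no test joins the words to the ratios.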

How the data were processed

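Expression was measured on 4 Affymetrix arrays of mouse spleen cultures, with biotinylated cRNA made from column-purified total RNA, per the labels' protocols. The authors deposited log2 expression of 45037 probe sets, with each SACC array and its control in a table of their own. The submitters' processing notes name Transcriptome Analysis Console. Its version, the summarisation, the normalization and the build were not given in the sources used here. Sorted values differed by at most 0.14 and 0.2 within a table and by 0.28 between the controls, so the tables appear normalized separately and ratios were taken within a table. A series table held the same values. The number of arrays limits the precision.

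Of the probe sets, 36109 had a single gene symbol, 1236 several and 7628 none, the rest carried dates where symbols belong, and only single symbols were named. Each gene was read from its brightest probe set by mean over the 4 arrays. limma 3.58.1 (R 4.3.3; lmFit and eBayes, default settings) was fitted to the log2 values of all probe sets with group and pair as terms, 1 residual and 2.965 prior degrees of freedom, a prior SD of 0.181, and Benjamini-Hochberg adjustment at 0.05. The code was checked on simulated data. The pairing comes from the labels, and 2 pairs are too few to check it in the values.

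The members, their roles, the related lists and the tests were chosen with earlier results of these data known. Written out by array were, in each role, the 2 genes with the largest difference between the pair ratios, each gene whose ratio had a sign opposite to the list's median in either pair, and Pcna, Mcm2 to Mcm7, Rrm2 and E2f1, 27 in all. In each related list the 3 genes with the highest mean level were named, except some that are not reported here. Promoters came from RefSeq (GRCm38.p6). Alternatives were the fit without the block, centring, quantile normalization, a filter on dim probe sets, eBayes with a trend or robust, a threshold of 0.10, 1 probe set or the mean of probe sets per gene, the probe set with the largest SD, leaving out each array, and leaving out each role. A further one, leaving out genes below the median on any array, was chosen after seeing the data.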

Additional observations from a re-analysis of the deposited data

Results flagged for a closer look

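The pairs differed in direction for many genes of 4 lists. SACCs had the higher level in the ES-medium pair and the lower level in the plain-medium pair for 35 of the 43 replication and S phase genes, 18 of 18 mitosis genes, 19 of 31 further replication factors and 11 of 15 homologous recombination and checkpoint genes. Each pair has 1 array per group, so the difference between the pairs was not tested.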

How the results depend on the processing

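No gene of the list passed the limma test under any setting, with 0 to 4 at an unadjusted p under 0.05, and no median over the list changed sign. Single ES-medium ratios changed sign with the probe set of largest SD for Orc1 (0.63), Cdt1 (0.19), Mcm3 (-0.34) and Fen1 (0.47), as did the plain-medium ratio of Orc1 (-0.42), and with the mean over probe sets for Fen1 (0.18), Cdt1 (0.0233) and the plain-medium ratio of Orc1 (-0.205). Ratios near 0 also changed sign for Rfc2 with centring (0.04) and, with quantile normalization, for Chaf1b (-0.0475) and the plain-medium ratio of Orc1 (-0.0275). The count of all probe sets passing was 587 with the pair as a block. It was 0 with no replicate block (3497 at an unadjusted p under 0.05, limma), 0 with each array centred on its median (7405 unadjusted), and 0 to 0 with each array left out in turn (2264 to 3535 unadjusted). It was 2045 with quantile normalization, 1326 over the probe sets above the median probe set, 898 with a trend, 2623 with robust eBayes, 2188 at a threshold of 0.10 and 1023 with 1 probe set per gene. The block changed no call for a gene of the list, since 0 passed with and without it. Members at least 2-fold higher in the ES-medium pair numbered 4 with quantile normalization (against 9). The median of SACC replicate 1 minus SACC replicate 2 was 0.33 with the mean over each gene's probe sets and 0.31 with the probe set of largest SD, against 0.55. Medians over the list ranged over the alternatives from 0.3013 to 0.48 in the ES-medium pair. The mean ratio of Pcna was -2.10 without control replicate 1 and -0.22 without control replicate 2, and that of E2f1 ranged from -0.965 to -0.445 over the arrays left out. The dim signals of Tyms, Exo1, Cdc6 and Ccne2 limit their ratios.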

Other observations

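Among all 19761 genes, 30 were at least 2-fold higher in SACCs in the ES-medium pair and at least 2-fold lower in the plain-medium pair. Of these, 4 were replication and S phase genes (Cdc6, Rrm2, Tk1 and Ccne2), 5 were on the mitosis list (Top2a, Birc5, Bub1, Nusap1 and Ccna2), and 1 was on the list of further replication factors (Dscc1, a subunit of an alternative clamp loader). Another 3 were neutrophil markers (S100a9, Ngp and Mmp8), and 16 were on none of the lists. The following were named after their values were seen. 2810417H13Rik, which RefSeq names Pclaf, a Pcna-binding factor, had ratios of 1.27 and -1.16. The kinetochore gene Ndc80 had 1.53 and -1.12, the centromere gene Cenph 1.1 and -1.29, and Cep55, which acts at the midbody, 1.43 and -1.24. S100a9 had the widest gap, at 8.17 and 3.35 in the SACC and control of the ES-medium pair and 9.49 and 10.53 in the plain-medium pair.

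The retinoblastoma gene Rb1, also named after its values were seen, was lower in SACCs in both pairs, with ratios of -1.08 and -1.01, and the CDK4 and CDK6 inhibitor Cdkn2b was higher in both, with 1.14 and 1.55. Neither passed the limma test.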
